A study of Rattus norvegicus with 24 samples.

Results

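The rodent cluster of miR-741, miR-881 and miR-743 is a group of miRNA genes on the rat X chromosome, and 7 of its mature products were followed here: rno-miR-741-3p, rno-miR-881-3p, rno-miR-871-3p, rno-miR-743b-5p, rno-miR-743b-3p, rno-miR-743a-3p and rno-miR-463-3p. They were picked by name from the 1098 miRNAs counted in small RNA of the paraventricular nucleus of the hypothalamus (PVN) and the central nucleus of the amygdala (CEA), because earlier results of these data had shown them higher in the CEA. All 7 were present in the table and had at least 10 counts in each nucleus, the minimum for the tests. The level in the CEA against the PVN is therefore given as a description with no test, and the treatments are compared within each nucleus.

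The rats were male Sprague–Dawley animals, 7 weeks old when purchased and then adapted before the experiment. There were 3 libraries for each of 4 treatments in each nucleus (24 libraries). Normal control (NC) rats had no operation, and hepatectomy (HT) rats lost about 20% of the left liver lobe under isoflurane. HT + EA rats had the same operation and electroacupuncture at ST36 and SP6 (2/15 Hz, 30 min a session) before and after it, and HT + SEA rats had sham electroacupuncture, with needles but no current. The nuclei were collected 24 h later than the final session. The comparisons ask whether surgery, and electroacupuncture on top of it, changes gene expression in nuclei that govern the stress hormone axis. The study speaks of 12 rats and of brain samples from different animals of one batch, and the labels do not say whether same-numbered libraries share a rat, so the p-values measure the spread between these libraries.

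This cluster belongs to the rodent branch of the miR-506 family, which lies between Slitrk2 and Fmr1, changes fast between mammals and is best known from the testis and male germ cells. As with other miRNAs, each hairpin can give a 5′ arm (5p) and a 3′ arm (3p), and the seed, bases 2 to 8 of the mature arm, leads the pairing with target mRNAs. Targets and functions of these miRNAs in the hypothalamus or amygdala were not examined here.

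The mature sequences show how far the members differ where target choice is set. They are from RefSeq (GRCr8), 5′ to 3′ with the seed in capitals, and all lie on the minus strand.
rno-miR-743a-3p, chrX:150444098-150444119: gAAAGACGccaaacuggguaga
rno-miR-743b-3p, chrX:150444588-150444609: gAAAGACAccauacugaauaga
rno-miR-743b-5p, chrX:150444623-150444644: uGUUCAGAcugguguccaucau
rno-miR-741-3p, chrX:150465166-150465187: aAAGAUGCcacgcuauguagau
rno-miR-463-3p, chrX:150466832-150466853: uGAUAGACgccaauuuggguag
rno-miR-881-3p, chrX:150474713-150474734: uAACUGUGgcauuucugaauag
rno-miR-871-3p, chrX:150478590-150478611: uGACUGGCaccauacuggauaa
The 7 seeds were all different, and no other rat miRNA of the reference table had any of them. Aligned from their first bases, rno-miR-743a-3p and rno-miR-743b-3p were the closest pair, with 18 of 22 bases identical and the substitutions G8A, A12U, G17A and G18A (rno-miR-743a-3p base first, positions from the 5′ end), of which G8A lies in the seed. With an offset of 1 base, rno-miR-743a-3p and rno-miR-463-3p were identical at 18 of 21 bases. Unbroken runs were shared at different positions: CACCAUACUG (10 bases) from base 7 of rno-miR-743b-3p and base 8 of rno-miR-871-3p, and AGACGCCAA (9 bases) from base 4 of rno-miR-743a-3p and base 5 of rno-miR-463-3p, both starting inside the seeds. CUGAAUAG (8 bases), from base 14 of rno-miR-743b-3p and base 15 of rno-miR-881-3p, lies outside them. No member had the same counts as any other miRNA in all libraries.

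Both arms of Mir743b were counted, and its hairpin (chrX:150444578-150444654, minus strand, GRCr8) is shown with the 5p and then the 3p arm in capitals.
Mir743b: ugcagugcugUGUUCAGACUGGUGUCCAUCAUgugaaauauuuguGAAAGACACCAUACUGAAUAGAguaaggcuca
In the CEA the 3p arm had 392 of the 735 reads on both arms (53.3%, exact 95% interval 49.7 to 57.0), and it outnumbered the 5p arm in 7 of 12 libraries (45.9 to 70.7%). In the PVN its share was 56 of 104 reads (53.8%, 43.8 to 63.7). No dominant arm was seen in either nucleus at this depth. All intervals on shares and ratios of reads cover counting error only.

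The libraries held 6584345 to 14913564 miRNA reads. A count of 3, taken as the lowest that shows a miRNA, equals 0.201 to 0.456 CPM (counts scaled to 1000000 miRNA reads) depending on the library. The nuclei were checked with 30 marker miRNAs in 10 lists, all of them detected. rno-miR-7a-5p, rno-miR-7b and rno-miR-375-3p, which are abundant in neuroendocrine hypothalamus, summed to 24828 to 54290 CPM in the CEA. Apart from a pair of PVN libraries treated separately below, they summed to 134902 to 169000 CPM in the other 10 PVN libraries. In bulk tissue, fewer cells that make a miRNA and less of it per cell cannot be told apart.

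In the CEA the cluster was low but present in every library. The summed level of the 7 members was 31.6, 12.3 and 11.9 CPM in NC replicates 1, 2 and 3, and 23.1, 13.1 and 15.5 CPM in HT. It was 18.3, 16.4 and 14.8 CPM in HT + EA and 32.9, 15.1 and 10.3 CPM in HT + SEA. In all 4 groups the library numbered 1 was the highest, and the ranges of the groups overlapped. In the PVN the sum was 12.8, 1.31 and 1.09 CPM in NC, and 1.02, 2.69 and 0.543 CPM in HT. It was 1.63, 0.989 and 0.742 CPM in HT + EA and 14.8, 1.15 and 3.20 CPM in HT + SEA. Only PVN NC replicate 1 and PVN HT + SEA replicate 1 reached the lowest CEA library, and the other 10 PVN libraries lay at 3.20 CPM or below.

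**Figure D1:**
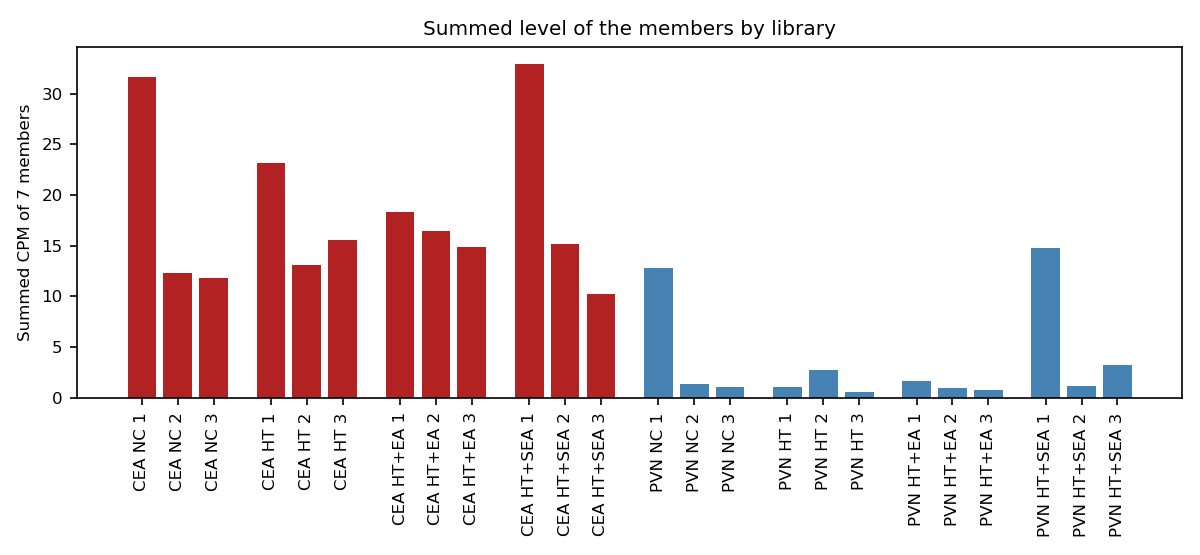
Bars give the summed CPM of the 7 members in each of the 24 libraries (red, CEA and blue, PVN, numbered as in the labels), on a linear axis from 0. CEA libraries run from 10.3 to 32.9 CPM, and in the PVN only NC 1 (12.8) and HT+SEA 1 (14.8) come near them.

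rno-miR-741-3p was the most abundant member, with 38.8% of the members' reads in the CEA (1056 of 2721, exact 95% interval 37.0 to 40.7). It had 105, 86 and 46 reads in CEA NC, 100, 35 and 68 in HT, 120, 79 and 100 in HT + EA and 185, 91 and 41 in HT + SEA. No CEA library was near the floor, and those with fewest reads came from HT and HT + SEA. In the PVN it had 24, 6 and 5 reads in NC, 2, 5 and 0 in HT, 9, 4 and 4 in HT + EA and 70, 6 and 14 in HT + SEA. Its mean was 6.87 ± 2.92 CPM in the CEA and 1.15 ± 1.63 CPM in the PVN (SD, n = 12 each), a ratio of 6.0, and the ratio was 14.5 without the 2 PVN libraries that stood apart.

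The next members in order of mean CEA level were rno-miR-881-3p (3.01 ± 1.72 CPM), rno-miR-743b-3p (2.60 ± 0.896), rno-miR-743b-5p (2.28 ± 0.908), rno-miR-743a-3p (1.37 ± 0.710), rno-miR-871-3p (0.932 ± 0.707) and rno-miR-463-3p (0.885 ± 0.422; SD, n = 12). For each pair of neighbours in this order the mean ± SD ranges overlapped. In CEA libraries rno-miR-881-3p had 15 to 95 reads (median 31.5), rno-miR-743b-3p 19 to 59 (28.5), rno-miR-743b-5p 12 to 46 (29.5) and rno-miR-743a-3p 9 to 33 (14). rno-miR-871-3p had 3 to 28 reads (8.5) and rno-miR-463-3p 4 to 26 (10.5). All but 1 of these CEA values, rno-miR-871-3p in NC replicate 2, were above the floor of 3 reads.

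In the PVN most values were at or under the floor. That was so for rno-miR-463-3p in 10 of 12 libraries, with 0 reads in 7, for rno-miR-871-3p, rno-miR-743b-3p and rno-miR-743a-3p in 9 each, for rno-miR-881-3p and rno-miR-743b-5p in 7 each, and for rno-miR-741-3p in 2. Against all 12 PVN libraries the mean CEA level was 6.92 times higher for rno-miR-743b-5p, 5.77 for rno-miR-463-3p, 5.75 for rno-miR-743b-3p, 5.63 for rno-miR-743a-3p, 3.71 for rno-miR-881-3p and 2.60 for rno-miR-871-3p. The last value rested on 1 library, since it was 5.50 without PVN NC replicate 1. Without both PVN libraries that stood apart, the ratio was 14.6 for rno-miR-871-3p and 9.74 for rno-miR-881-3p, and the other 5 members lay between 10.4 (rno-miR-743a-3p) and 16.3 (rno-miR-463-3p). Among the 898 miRNAs with at least 10 reads over all libraries, the members' ratios (with 0.05 CPM added to each mean) ranked from 1 (rno-miR-743b-5p) and 3 (rno-miR-741-3p) to 18 (rno-miR-881-3p) and 34 (rno-miR-871-3p), and from 2 (rno-miR-741-3p) to 9 (rno-miR-743a-3p) without both libraries. For no member were all CEA libraries above all PVN libraries (background 5.01% of these miRNAs), and this held for 5 of 7 against the other 10 PVN libraries (background 6.01%). These values are what the members were chosen on, and the 2 PVN libraries were set apart because the members were high in them.

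**Figure D2:**
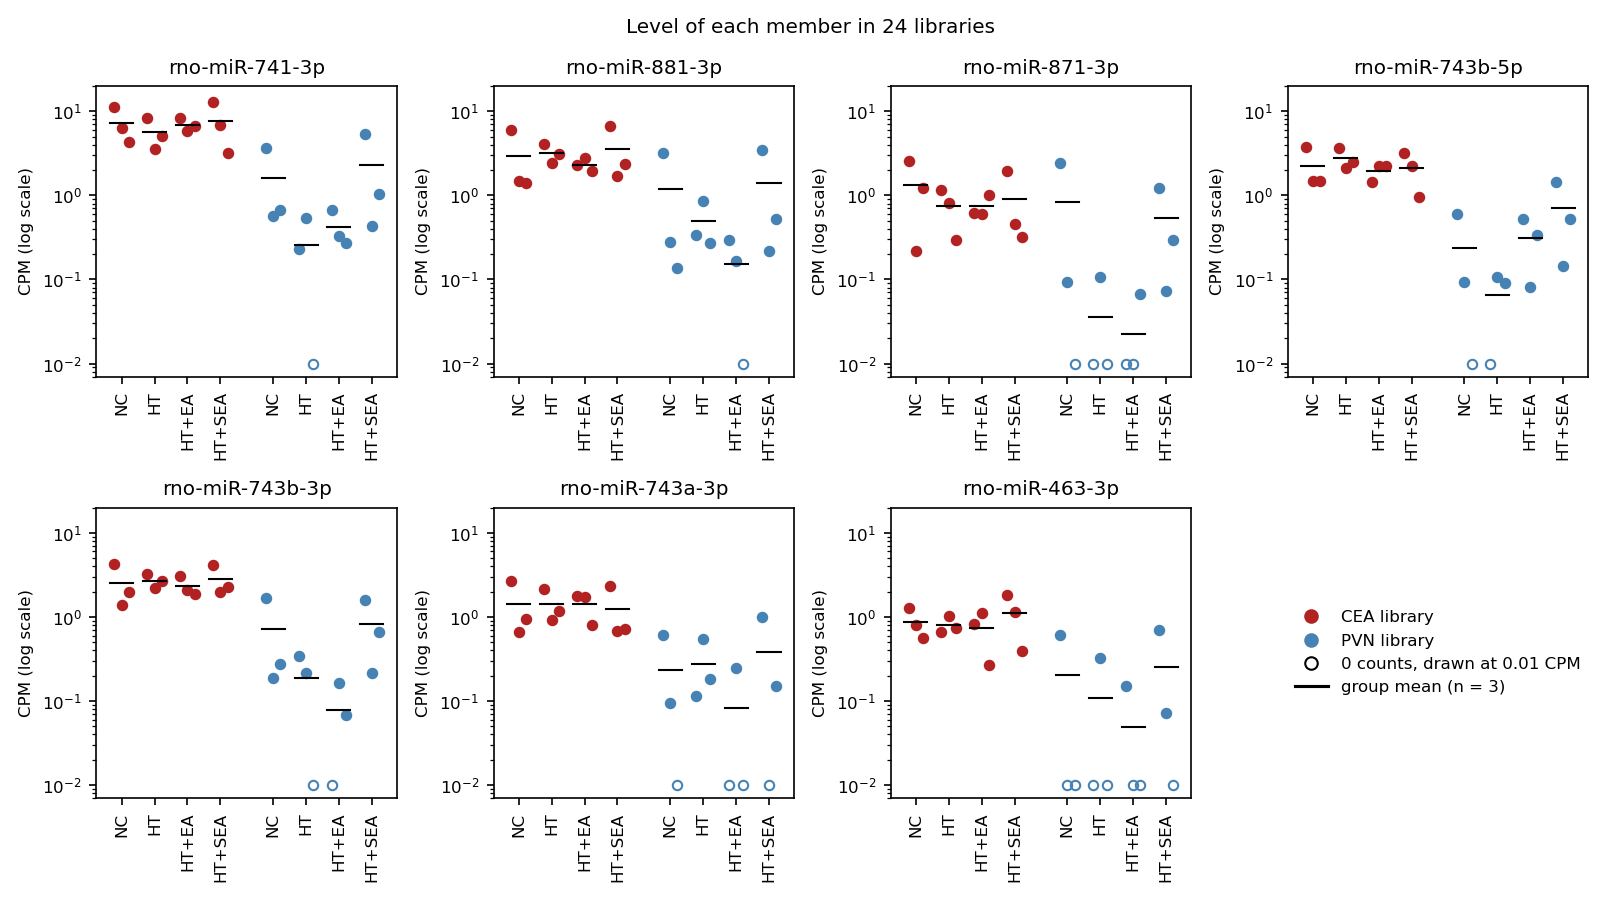
Each panel shows a member's CPM (log axis) in the 3 libraries of each group, replicates 1 to 3 from left to right, with CEA in red, PVN in blue, the group mean as a line and libraries with 0 reads as open circles at 0.01 CPM. CEA points stay above most PVN points, while the first point of PVN NC and of PVN HT+SEA is the highest of its group for all 7 members.

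Inside the CEA the members varied together from library to library. After centring within treatment, the correlation of log2 CPM over the 12 CEA libraries ranged from 0.31 to 0.93 over the 21 pairs of members, with a median of 0.71. This is a description, since the members of a pair share the library and its depth.

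Surgery was not accompanied by a called change of any member in the CEA. Comparing HT with NC, 0 of 7 members passed an unadjusted p under 0.05 in edgeR's quasi-likelihood test, where 3.02% of all 762 miRNAs tested did, and DESeq2 also called 0. Log2 fold changes ran from -0.64 (rno-miR-871-3p) to 0.47 (rno-miR-743b-5p), with a median of 0.19 beside 0.02 over all miRNAs, and SE of 0.44 to 0.81. For rno-miR-741-3p the change was -0.20 (SE 0.49, adjusted p = 0.995). CEA NC replicate 1 weighed on this comparison: without it, rno-miR-881-3p was higher in HT by 1.27 on the log2 scale (SE 0.55, adjusted p = 0.729), the 1 member called in that fit (5.04% of all miRNAs were), and the members' median was 0.81.

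Electroacupuncture and its sham gave no called change of a member in the CEA either. The count was 0 of 7 for HT + EA against HT (background 4.86%), for HT + SEA against HT (3.94%), for HT + EA against HT + SEA (1.44%) and for any difference among the 4 treatments (3.02%), with edgeR and with DESeq2. The members' median log2 fold change was -0.27, -0.01 and -0.26 in the 3 pairwise comparisons, and the smallest p was 0.178. Leaving out each library in turn, these medians ran from -0.45 to -0.08, from -0.81 to 0.37 and from -0.55 to 0.27. For every pair of treatments, the CEA ranges of the groups overlapped for all 7 members, while groups did not overlap for 6.82% of all miRNAs (NC and HT), 11.7% (NC and HT + EA, and also HT and HT + EA), 7.35% (NC and HT + SEA), 8.01% (HT and HT + SEA) and 5.51% (HT + EA and HT + SEA). The SE was 0.43 to 0.83 on the log2 scale, and a call needs a change well above its SE. At this depth and number of libraries a 2-fold change could therefore go uncalled for most members. A count of 0 of 7 does not show that the members were unchanged.

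In the PVN some members were called, and in each pairwise comparison none was left when 1 of the libraries that stood apart was left out. For HT against NC, 2 of 7 members were lower (background for lower calls 8.40% of 762, for calls in either direction 15.7%). rno-miR-741-3p, at 24, 6 and 5 reads in NC and 2, 5 and 0 in HT, was lower, with a log2 fold change of -2.66 (SE 1.10, adjusted p = 0.225), and its groups did not overlap (background 16%). rno-miR-871-3p had 16, 1 and 0 reads in NC and 0, 1 and 0 in HT (adjusted p = 0.224), a ratio of NC to HT of 20.1 with an exact 95% counting interval of 3.15 to 840. Its NC reads were nearly all in replicate 1, without which the ratio was 1.61 (0.0206 to 127). Without PVN NC replicate 1 neither member was called (13.1% of all miRNAs were), the log2 fold change of rno-miR-741-3p was -1.32 (SE 1.21), the smallest p was 0.285, and the members' median moved from -1.53 to 0.24. The count was also 0 without HT replicate 1 (17.2% of all miRNAs) and without HT replicate 3 (11.8%).

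For HT + EA against HT in the PVN, 0 of 7 members were called by edgeR and by DESeq2 (background 15%), with a smallest p of 0.120. rno-miR-743b-5p, the member with that p, had 0, 1 and 1 reads in HT and 7, 1 and 5 in HT + EA.

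For HT + SEA against HT in the PVN, 2 members were higher (background for higher calls 4.72%, either direction 9.32%). rno-miR-741-3p had 2, 5 and 0 reads in HT and 70, 6 and 14 in HT + SEA, a log2 fold change of 3.17 (SE 1.04, adjusted p = 0.489). rno-miR-743b-5p had 0, 1 and 1 reads in HT and 19, 2 and 7 in HT + SEA (adjusted p = 0.489), a ratio of 10.1 with a counting interval of 2.54 to 87.4, and its groups did not overlap (background 12.6%). Without HT + SEA replicate 1 that ratio was 4.79 (0.992 to 45.6). DESeq2 called 3 members (8.01% of all miRNAs). Without HT + SEA replicate 1 the count was 0 (5.97%), the smallest p was 0.115 and the log2 fold change of rno-miR-741-3p was 1.55 (SE 1.02). Without HT + SEA replicate 2 the count was 4 (7.89%).

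For HT + EA against HT + SEA, 4 of 7 members were lower in HT + EA (background for lower calls 3.94%, either direction 4.72%). rno-miR-741-3p had a log2 fold change of -2.40 (SE 0.91, adjusted p = 0.824) and rno-miR-881-3p, with 4, 2 and 0 reads in HT + EA and 45, 3 and 7 in HT + SEA, one of -3.12 (SE 1.19, adjusted p = 0.824). rno-miR-743b-3p had 0, 2 and 1 reads against 21, 3 and 9 (adjusted p = 0.824), a ratio of HT + SEA to HT + EA of 11.0 with a counting interval of 3.45 to 56.1. rno-miR-871-3p had 0, 0 and 1 reads against 16, 1 and 4 (adjusted p = 0.938), a ratio of 21.0 with an interval of 3.38 to 869. Without HT + SEA replicate 1 the ratio was 5.91 (1.60 to 32.7) for rno-miR-743b-3p and 7.39 (0.827 to 349.6) for rno-miR-871-3p. The groups of these last 2 members did not overlap (background 14.2%). Without HT + SEA replicate 1 the log2 fold change was -0.77 (SE 0.90) for rno-miR-741-3p and -1.22 (SE 1.27) for rno-miR-881-3p. The count was then 0 (3.45% of all miRNAs) and the smallest p 0.0716, and without HT + EA replicate 3 the count was 2 (3.74%). With both libraries that stood apart left out, 1 of the 5 members still tested, rno-miR-743b-3p, was called (3.90%).

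Over all 4 PVN treatments, 3 members were called for any difference (rno-miR-741-3p, adjusted p = 0.303, rno-miR-871-3p, adjusted p = 0.336, and rno-miR-743b-3p, adjusted p = 0.338, background 12.9%), and with both libraries left out the count was 0 of the 5 members still tested (10.1%). Leaving out those 2 libraries together was chosen after the data were seen. The count was 1 without HT + EA replicate 1 (9.47% of all miRNAs), and it was 5 without NC replicate 1 (13.4%) or without HT + SEA replicate 2 (11.6%). No member passed an adjusted p under 0.05 in any of these comparisons. In the same fits 0.525% of all miRNAs tested passed it in PVN HT against NC, 0.394% in PVN HT + EA against HT, 0.787% in the PVN test of any difference and 0% in the others. With a minimum of 1 count in place of 10, 4 members passed it in the PVN test of any difference (background 4.18% of 1053), 1 in PVN HT against NC (3.99%) and 1 in PVN HT + SEA against HT (0.665%).

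**Figure D3:**
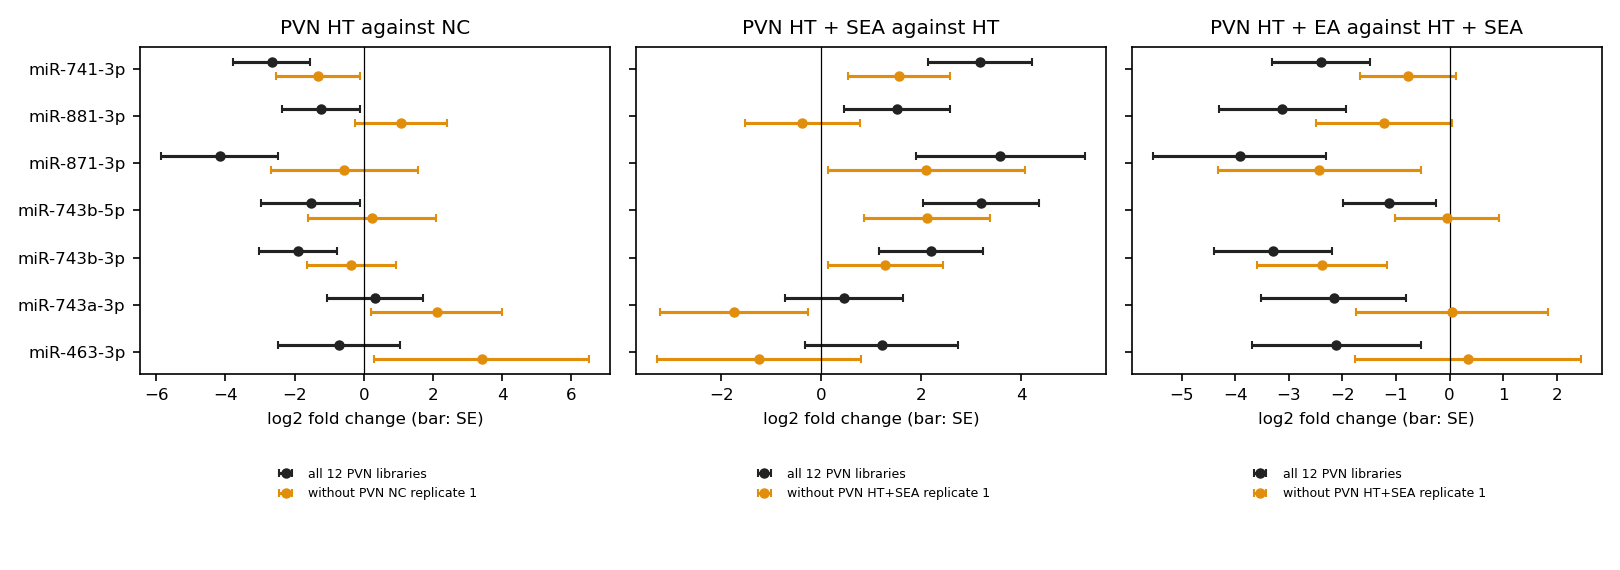
Points give the log2 fold change of each member in 3 PVN comparisons with its SE as a bar, from all 12 PVN libraries (black) and without the library of the pair that stood apart in that comparison (orange). The members' medians move from -1.53 to 0.24, from 2.19 to 1.28 and from -2.40 to -0.77, and no orange value was called.

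PVN NC replicate 1 and PVN HT + SEA replicate 1 were above the highest of the other 10 PVN libraries for all 7 members. That was so for 11.0% and 8.80% of the 898 miRNAs, and by more than 2-fold for 1.78% and 2.0%, against 4 and 6 of the members. The 2 libraries were set apart because the members were high in them, so these counts follow largely from that choice. Of the members' reads, rno-miR-741-3p took 28.6% (exact 95% interval 19.2 to 39.5) in the first and 36.3% (29.5 to 43.5) in the second. rno-miR-871-3p took 19.0% (16 of 84, interval 11.3 to 29.1) in PVN NC replicate 1, where it took 5.0% in the CEA (4.21 to 5.89), and 8.29% (4.81 to 13.1) in PVN HT + SEA replicate 1. In single CEA libraries the share of rno-miR-871-3p ranged from 1.79 to 10.2%, a spread that these intervals do not cover.

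The markers of these 2 libraries lay mostly in the range of the other PVN libraries. In PVN HT + SEA replicate 1, 9 of 10 lists were within that range, and the neuron list (rno-miR-124-3p, rno-miR-9a-5p, rno-miR-128-3p and rno-miR-138-5p) was at 102997 CPM beside 105679 to 116875. In PVN NC replicate 1 the neuroendocrine list was at 170631 CPM beside 134902 to 169000, the oligodendrocyte list (rno-miR-219a-5p, rno-miR-219a-2-3p and rno-miR-338-3p) at 1795 beside 2422 to 3236, and the ependyma and ciliated cell list (rno-miR-449a-5p, rno-miR-34b-5p and rno-miR-34c-5p) at 3918 beside 2269 to 3355. In the CEA these 4 lists ran from 137892 to 162609 (neuron), 24828 to 54290 (neuroendocrine), 3904 to 7916 (oligodendrocyte) and 188 to 1123 CPM (ependyma). Each list outside the PVN range was farther from the CEA values than the other PVN libraries were. The myeloid, vessel, red cell, muscle, epithelium and liver lists of both libraries were within the range of the other 10. Their part in the members' levels was not tested.

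The same 2 treatments gave the highest libraries in the CEA. CEA NC replicate 1 and CEA HT + SEA replicate 1, with 31.6 and 32.9 CPM, were the highest of the 12 CEA sums. The third, CEA HT replicate 1 at 23.1 CPM, had a PVN library of the same number at 1.02 CPM.

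The effect of a treatment was also compared between the nuclei in 1 fit over all 24 libraries. For HT against NC, 0 of 7 members were called (background 5.68% of 898), with DESeq2 also at 0. With the replicate number as a block it was 2 (rno-miR-741-3p and rno-miR-743b-3p, background 5.79%). The count was 3 without CEA NC replicate 1 (8.31% of all miRNAs) or PVN NC replicate 2 (7.65%) and 2 without PVN NC replicate 3 (4.5%). It was 1 without CEA HT replicate 2 (5.97%), PVN HT replicate 1 (5.72%) or PVN HT replicate 2 (6.29%). For HT + EA against HT, 1 member, rno-miR-743b-5p, was called (background 2.56%). Its difference, CEA effect minus PVN effect, was -2.72 on the log2 scale (SE 1.31, adjusted p = 0.9998). It had 45, 21 and 34 reads in CEA HT and 21, 30 and 33 in CEA HT + EA. The call was lost without any 1 of 8 of the 12 libraries compared: CEA HT + EA replicate 1 or 2, CEA HT replicate 1, PVN HT + EA replicate 1 or 3, or any PVN HT library.

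The other miRNAs of the locus lay in the same stretch as the members. From rno-miR-743a-3p to rno-miR-465-5p the mature miRNAs span 44.1 kb (chrX:150444098-150488232, GRCr8), with 13 miRNA genes, 6 of them giving members. RefSeq annotates the lncRNA LOC120099202 over 4 of the hairpins, Mir741 among them, and LOC108349259 over 6, Mir881 and Mir871 among them, with Slitrk2 as the nearest protein-coding gene on 1 side. The other 15 mature miRNAs of this stretch summed to 2.47 ± 0.970 CPM in the CEA and 0.628 ± 1.07 CPM in the PVN (SD, n = 12), where PVN NC replicate 1 (1.97 CPM) and PVN HT + SEA replicate 1 (3.60 CPM) were again the highest and the other 10 lay at 0.446 or below. Of the 15, 13 had a median of 3 reads or fewer in the CEA. Of the 11 with at least 10 reads, all 11 had a higher mean in the CEA.

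rno-miR-471-5p was the most abundant of them. It had 5 to 17 reads in the CEA, 19 in PVN HT + SEA replicate 1, 4 in PVN NC replicate 1 and 0 to 3 in the other PVN libraries. Its mature sequence (chrX:150462942-150462963, minus strand, seed in capitals) has a seed that no member shares.
rno-miR-471-5p: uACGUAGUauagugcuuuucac
For treatments, 0 of the 9 other locus miRNAs tested in the CEA were called in any comparison. In the PVN only rno-miR-471-5p passed the count minimum, and it was called for HT + EA against HT + SEA (adjusted p = 0.824). It had 1, 0 and 0 reads in HT + EA and 19, 1 and 1 in HT + SEA, and the call was lost without HT + SEA replicate 1 and without HT + EA replicate 2 or 3.

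The related miRNAs 1.22 Mb farther along the chromosome, towards Fmr1, had the opposite order. miR-201, miR-547 and miR-509 arms, 6 in all, summed to 3.53 ± 1.51 CPM in the CEA and 10.6 ± 3.34 CPM in the PVN (SD, n = 12), and 0 of the 6 had a higher mean in the CEA. Nearly all of this was rno-miR-547-3p (chrX:151712092-151712113, minus strand, seed in capitals), shown because it is the most abundant of the 6.
rno-miR-547-3p: aUUGGUACuucuuuaagugaga
It had 11 to 69 reads in CEA libraries and 35 to 215 in PVN libraries, where neither PVN NC replicate 1 (41 reads) nor PVN HT + SEA replicate 1 (129 reads) stood apart. It passed the unadjusted threshold for HT against NC in both nuclei, and for any difference in both (adjusted p = 0.997 in the CEA and 0.360 in the PVN). It had 13, 29 and 11 reads in CEA NC and 53, 56 and 26 in CEA HT, a log2 fold change of 1.51 (SE 0.40, adjusted p = 0.967). In the PVN it had 41, 89 and 35 reads in NC and 84, 119 and 117 in HT, a log2 fold change of 0.70 (SE 0.27, adjusted p = 0.204). The call was kept without each of the CEA NC and HT libraries in turn, and in the PVN it was lost without NC replicate 3, without HT replicate 2 and without both libraries that stood apart. The difference from the members was not tested. Of the other relatives, rno-miR-509-3p was called in the CEA, for HT + EA against HT (adjusted p = 0.909) and for any difference (adjusted p = 0.997). It had 0 reads in all 3 HT libraries and 3, 3 and 5 in HT + EA, at or close to the floor of 3 reads, and DESeq2 did not call the first of these. CEA NC held 1 read of it and CEA HT + SEA 3, beside 11 in HT + EA. It therefore passed the count minimum only through the group where it was high, and these calls are not support for a change.

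Of the miRNAs not known to lie at the locus, the one most like the members was a predicted one. Of 527 miRNAs with a mean of at least 10 reads, novel_242 had the highest correlation of log2 CPM with the mean member profile over the 24 libraries (Pearson r = 0.95), followed by rno-miR-222-5p (0.85), rno-miR-139-3p (0.84), rno-miR-383-5p (0.82) and rno-miR-221-3p (0.81). The 24 points share library depth and include the step between the nuclei. novel_242 had 21 to 77 reads in the CEA (3.77 ± 1.56 CPM), 16 reads in PVN NC replicate 1, 48 in PVN HT + SEA replicate 1 and 0 to 10 in the other PVN libraries. Its sequence and position are not given in the sources used here.

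The 4 known miRNAs of this list were higher in the CEA, and in the 2 PVN libraries each stayed below its lowest CEA library. rno-miR-139-3p was at 37.1 and 34.8 CPM in PVN NC replicate 1 and PVN HT + SEA replicate 1, beside 23.2 to 40.1 in the other PVN libraries and 91.2 to 162 in the CEA. rno-miR-221-3p was at 281 and 404 CPM there, beside 285 to 415 in the other PVN libraries and 973 to 1422 in the CEA. rno-miR-222-5p was at 1.82 and 1.91 CPM there, beside 0.966 to 2.59 and, in the CEA, 2.37 to 6.10. rno-miR-383-5p was at 472 and 520 CPM, beside 433 to 518 and, in the CEA, 702 to 1040. Only rno-miR-383-5p in PVN HT + SEA replicate 1 was above the other 10 PVN libraries. Within the 12 CEA libraries, centred by treatment, the closest were rno-miR-382-3p (r = 0.93), rno-miR-3592 (0.93) and novel_242 (0.88). The counts of rno-miR-3592 were 99.6 to 99.9% of those of rno-miR-382-3p, so this pair is 1 measurement. rno-miR-382-3p was lower in the CEA, at 1224 ± 154 CPM beside 1736 ± 77.8 CPM in the PVN (SD, n = 12).

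**Figure D4:**
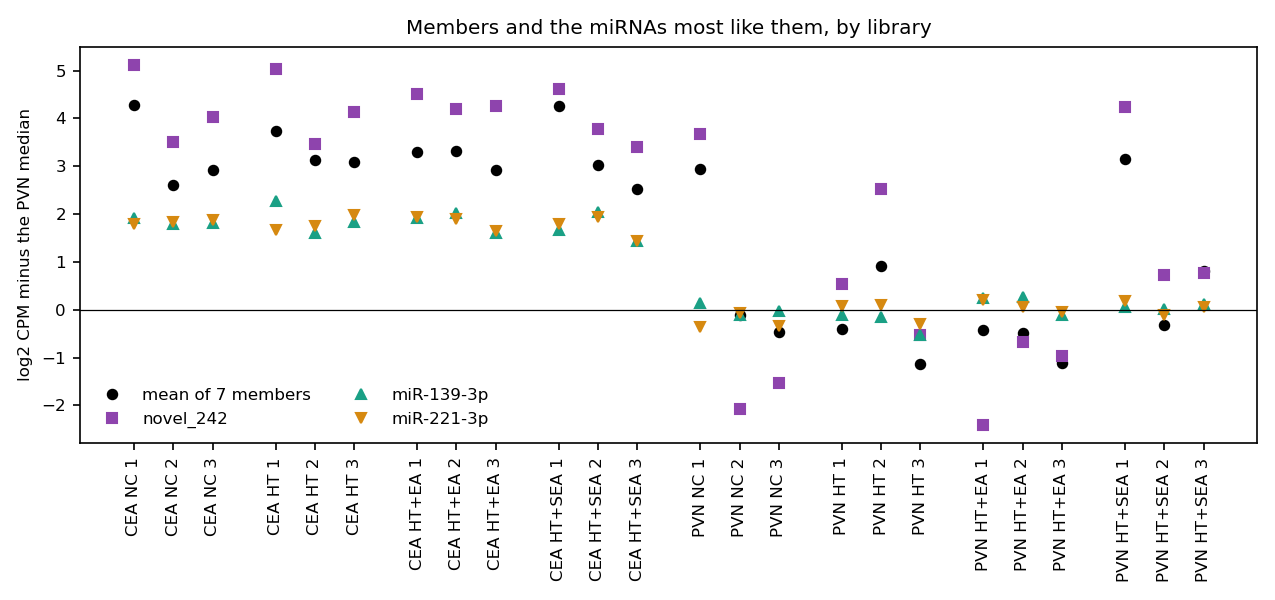
Points give log2 CPM minus the median of the PVN libraries, for the mean of the 7 members (black) and for novel_242, rno-miR-139-3p and rno-miR-221-3p, in each of the 24 libraries. All 4 are above 0 in the CEA, and in PVN NC 1 and PVN HT+SEA 1 only the members (2.95 and 3.15) and novel_242 (3.67 and 4.24) are near their CEA levels.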

How the data were processed

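Small RNA libraries (NEBNext kit) were made from rat PVN and CEA, 3 per treatment and nucleus, and the authors deposited whole-number read counts per miRNA without normalization. The submitters' notes name HISAT2, featureCounts and the human build GRCh38 (hg38), without versions, and the study's methods give a rat genome. How reads matching several miRNAs were counted is not given in the sources used here, and the series' design text says mouse where the labels and miRNA names say rat. Another 24 per-sample columns of normalized values were not used.

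CPM are counts divided by the library's total. Within each nucleus the 4 treatments were fitted together (12 libraries) with edgeR 4.0.16 in R 4.3.3, using TMM scaling and its quasi-likelihood test (glmQLFTest) on miRNAs of at least 10 summed counts, and the difference between nuclei over all 24. A miRNA was called at an unadjusted p under 0.05, the study's threshold, with Benjamini-Hochberg values over all miRNAs tested beside it. The SE given with a log2 fold change is its size divided by the square root of the F statistic of this test. On counts simulated for PVN HT against NC (745 miRNAs) the test called 24 of 24 miRNAs raised and 35 of 35 lowered 2-fold and 3.48% of 546 unchanged ones, and for CEA HT against NC (744 miRNAs) 27 of 29 raised 2-fold, 26 of 32 lowered 2-fold and 4.36% of 550. For the effect of HT between nuclei (867 miRNAs) it called 19 of 27 raised and 17 of 28 lowered 2-fold, and 4.93% of 670. Changed miRNAs were scored at a mean of at least 50 counts, and all miRNAs were simulated with the same dispersion, the spread beyond counting error. In the CEA only rno-miR-741-3p (1056 reads in 12 libraries) lay above that mean. In the PVN no member did, and rno-miR-741-3p had 149 reads in 12 libraries. These calls therefore do not show what the test detects for the other members in the CEA or for any member in the PVN. Log2 CPM for correlations add 0.5 to each count. Alternatives were DESeq2 1.42.0, other scalings and count minimums, a robust prior, only the groups compared, a replicate block and leaving out each library.

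Named miRNAs are the 7 members, other miRNAs of the locus and its relatives by name or within 1 Mb, and those with the highest correlation with the members (5 over 24 libraries, 3 within the CEA). Of 703 known miRNAs, 637 matched the RefSeq table. Members, lists and tests were chosen with earlier results of these data known.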

Additional observations from a re-analysis of the deposited data

Results flagged for a closer look

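miR-743b-5p was picked out because its response to HT + EA against HT differed between the nuclei at the unadjusted threshold, by -2.72 on the log2 scale (CEA effect minus PVN effect, edgeR, adjusted p = 0.9998). In the CEA its mean was 2.78 ± 0.823 CPM in HT and 1.97 ± 0.452 CPM in HT + EA (SD, n = 3). In the PVN it had 2 reads over the 3 HT libraries and 13 over the 3 HT + EA libraries, a ratio of 4.68 with an exact 95% counting interval of 1.06 to 42.7. It did not pass after adjustment over 898 miRNAs, and no other member was called.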

How the results depend on the processing

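In the CEA, 0 members were called in the 4 pairwise comparisons and in the test of any difference under DESeq2, the other scalings, the other count minimums, the robust prior, the adjusted threshold and, for pairwise comparisons, only the groups compared. Leaving out libraries gave 0 to 1 for HT against NC (2.13 to 5.44% of all miRNAs) and 0 elsewhere in the CEA. In the PVN the count moved. For HT against NC (2 called) it was 0 at the adjusted threshold, 3 with at least 1 count (12.6% of all miRNAs called), 1 with filterByExpr (20.7%), which keeps 1 member in PVN fits, 1 with the robust prior (15%), 0 without both libraries that stood apart (11.6%), and 0 to 3 leaving out libraries (11.8 to 17.2%). For HT + SEA against HT (2) it was 0 adjusted, 5 with at least 1 count (8.26%), 1 with filterByExpr (10.7%), 4 with only the groups compared (8.58%), 0 without both libraries (6.45%), and 0 to 4 leaving out libraries (4.57 to 11.1%). For HT + EA against HT + SEA (4) it was 0 adjusted, 1 with filterByExpr (4.18%), 1 without both libraries (3.90%), and 0 to 5 leaving out libraries (3.07 to 4.95%). For any PVN difference (3) it was 0 adjusted, 5 with at least 1 count (12.7%), 1 with filterByExpr (15.5%), 0 without both libraries (10.1%), and 1 to 5 leaving out libraries (9.47 to 15.6%). PVN HT + EA against HT stayed at 0. For the effect of HT between nuclei (0) it was 1 with at least 1 count (5.10%), 1 with only the groups compared (3.05%), and 0 to 3 leaving out libraries (3.61 to 8.58%). For that of EA (1) it was 0 adjusted, 0 with library totals (2.67%), 0 with the upper quartile (2.34%), 0 with filterByExpr (0.691%), 0 with the robust prior (2.34%), and 0 to 1 leaving out libraries (1.68 to 4.5%). The cause was not tested. The ratio of the summed CEA to PVN level, 5.14, ranged from 4.75 to 7.28 leaving out 1 library and was 12.5 without both. miR-741-3p and miR-871-3p in PVN HT against NC, and the other called members, kept their direction under each alternative run.

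Of the groups compared pairwise, the replicate numbers were taken to pair only CEA NC and HT, as a hint from the data and not from the labels. Deviations from the group mean correlated at over 0.1 in 4 of 18 same-numbered pairs in the CEA, 4 of 18 in the PVN and 3 of 12 between the nuclei. All 3 pairs passed for CEA NC and HT (0.125 to 0.153) and for PVN NC and HT + SEA (0.124 to 0.142), a pair of groups not compared here. By mean correlation, 6 and 7 of 12 libraries were closest to their own number. With a replicate block, 0 members were called in the CEA comparisons, 2 in PVN HT against NC (15.1% of all miRNAs), 4 in PVN HT + SEA against HT (8.92%), 4 in PVN HT + EA against HT + SEA (4.72%), 4 for any PVN difference (12.9%), where rno-miR-881-3p was added, and 2 for the effect of HT between nuclei (5.79%). Depth limits the PVN values: most are at or under 3 reads, where a fold rests on a few reads of 1 library.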

Other observations

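X-linked miRNAs at large did not share the direction on which the members were chosen, which is given as a description with no test. Of 73 other X-linked miRNAs with at least 10 reads over the 24 libraries, 25 had a higher mean in the CEA, with a median CEA to PVN ratio (0.05 CPM added to each mean) of 0.794, where 408 of all 898 such miRNAs had a higher mean in the CEA and the median ratio was 0.952. All CEA libraries were above all PVN libraries for 4 of the 73, beside 45 of all 898 (5.01%). Among the 73 are the miR-547 and miR-509 arms, which had lower means in the CEA.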
